A study of Mus musculus with 18 samples.

Results

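The S100 proteins and annexins described here are 10 genes, the S100 genes *S100a4*, *S100a6*, *S100a10*, *S100a11* and *S100a13* and the annexin genes *Anxa1*, *Anxa2*, *Anxa4*, *Anxa5* and *Anxa6*, out of 50600 genes counted in Foxp3+ regulatory T cells (Tregs). They were listed by name because several of the S100 genes were higher in splenic but not in thymic Tregs lacking CD25, the IL-2 receptor α chain encoded by *Il2ra*. They were thus chosen by their levels in CD25 KO and WT mice of each tissue, and those levels, their log2 fold changes and the difference between the tissues are given as a description. The contrast of WT spleen with WT thymus was not itself used for the choice and is tested. The same WT mice entered the choice, however, so this test is not independent of it.

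Each of the 18 samples came from 1 mouse on the C57BL/6 background. Thymic Tregs were sorted from 5 CD25 WT Foxp3/RFP reporter mice and from 5 mice with a floxed CD25 gene and a YFP/Cre allele of *Foxp3* (CD25cKO), all at 3–4 weeks of age. The CD25cKO mice had been “cured” of autoimmunity with WT splenocytes given intravenously in the neonatal period, so WT donor Tregs were present in these mice, and the thymic groups also carried different reporter alleles. Splenic Tregs were sorted from 4 mice with the floxed CD25 gene, a tamoxifen-dependent Cre expressed from *Foxp3* (Foxp3eGFP-Cre-ERT2) and a YFP reporter that Cre switches on (R26Y), and from 4 CD25 WT reporter controls. Both splenic groups received tamoxifen at 7–10 weeks of age and were collected 10–14 days later. In both models Cre acts in cells that express *Foxp3* and removes 1 exon of *Il2ra*. Tissue, mouse model, age, tamoxifen treatment and the date in the sample headers changed together between thymus and spleen and cannot be told apart.

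S100 proteins are small proteins, most of which bind calcium and work as dimers. In most of them calcium opens a surface that docks onto target proteins, among them myosin, annexins and cytoskeletal regulators. Annexins bind acidic phospholipids in membranes when calcium rises, and they act in membrane repair, vesicle traffic and the linking of membranes to actin. The families meet in fixed pairs, most firmly in the heterotetramer of S100A10 with annexin A2, and in T cells *S100a4*, *S100a6*, *S100a10*, *S100a11* and *Anxa2* are known as transcripts of antigen-experienced rather than naive cells.

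The 5 S100 genes lie on chromosome 3 of GRCm38, all on the + strand, and are given with their GENCODE identifiers. *S100a13* (ENSMUSG00000042312.9) spans 90514435 to 90524581, *S100a4* (ENSMUSG00000001020.8) 90603771 to 90606045, and *S100a6* (ENSMUSG00000001025.8) 90612882 to 90624181. *S100a11* (ENSMUSG00000027907.4) at 93520488 to 93526287 and *S100a10* (ENSMUSG00000041959.14) at 93555080 to 93564643 form a second pair further along the chromosome. The annexin genes are scattered. *Anxa5* (ENSMUSG00000027712.13) is also on chromosome 3, at 36448923 to 36475894 on the − strand. *Anxa2* (ENSMUSG00000032231.14) is on chromosome 9 at 69453620 to 69491795 (+), and *Anxa4* (ENSMUSG00000029994.17) on chromosome 6 at 86736840 to 86793584 (−). *Anxa6* (ENSMUSG00000018340.13) is on chromosome 11 at 54979108 to 55033445 (−), and *Anxa1* (ENSMUSG00000024659.14) on chromosome 19 at 20373428 to 20390944 (−). In the annotation used here 302 of the 584 exonic bases of *S100a4* are shared with the same-strand gene *Gm42674*, which had 0 counts in every sample, so the level of *S100a4* is uncertain by whatever the counting did with shared bases. *Anxa2* and *Anxa4* each overlap a gene on the other strand, and since the strand setting of the counting is not given, reads of the partner cannot be told apart from theirs. The partner of *Anxa2*, *Gm16144*, had 1 to 28 counts, and that of *Anxa4*, *Gm44036*, had 2 to 19.

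Promoters are printed for genes with wide differences between the groups, whose group means differed in the same direction within each tissue. Their levels did not all move together among mice. With the mean of each group removed, Pearson's r ran from -0.22 (*S100a11* and *Anxa2*) to 0.48 (*S100a6* and *S100a11*). The windows are those of RefSeq on GRCm38.p6, 300 bases long, from 250 bases before to 50 bases after the start on which each window was set. This start can differ from the GENCODE start given above, and that of *Anxa2* lies inside its GENCODE span. Positions below are relative to the start of the window's source. Of the 10 genes, 8 had 1 or more windows, 9 in all. Motifs were searched on both strands, spelled TTCNNNGAA for a STAT element, TGANTCA for an AP-1 element, TGTTTAC for a forkhead element and TATAAA for a TATA box. Capitals below mark the matches. The windows are chr3:90603520-90603819 (+) for *S100a4*, chr3:90612644-90612943 (+) for *S100a6*, chr3:93520246-93520545 (+) for *S100a11* and chr9:69453433-69453732 (+) for *Anxa2*.
S100a4: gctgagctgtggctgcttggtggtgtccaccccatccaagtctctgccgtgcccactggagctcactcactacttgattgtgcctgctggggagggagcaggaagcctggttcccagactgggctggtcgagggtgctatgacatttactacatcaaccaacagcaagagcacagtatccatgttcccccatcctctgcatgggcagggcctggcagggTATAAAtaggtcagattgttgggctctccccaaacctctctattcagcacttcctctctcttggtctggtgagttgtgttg
S100a6: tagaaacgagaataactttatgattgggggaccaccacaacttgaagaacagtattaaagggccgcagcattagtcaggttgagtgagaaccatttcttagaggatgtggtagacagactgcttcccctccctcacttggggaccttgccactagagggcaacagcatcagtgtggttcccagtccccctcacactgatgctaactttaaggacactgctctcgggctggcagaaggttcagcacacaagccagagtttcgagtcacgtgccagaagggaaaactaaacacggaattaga
S100a11: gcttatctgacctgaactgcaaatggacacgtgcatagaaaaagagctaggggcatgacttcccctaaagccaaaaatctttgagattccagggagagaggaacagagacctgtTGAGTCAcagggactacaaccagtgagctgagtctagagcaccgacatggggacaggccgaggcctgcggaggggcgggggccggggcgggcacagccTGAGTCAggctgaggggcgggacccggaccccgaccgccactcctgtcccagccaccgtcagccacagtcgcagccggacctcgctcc
Anxa2: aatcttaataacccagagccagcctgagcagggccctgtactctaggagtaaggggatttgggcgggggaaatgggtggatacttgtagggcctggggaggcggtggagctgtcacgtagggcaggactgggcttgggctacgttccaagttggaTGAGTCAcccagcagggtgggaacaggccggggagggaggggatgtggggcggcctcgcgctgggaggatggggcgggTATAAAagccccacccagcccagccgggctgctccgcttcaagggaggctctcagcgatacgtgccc

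The *S100a4* window held a TATA box that began 31 bases before the start, and the *S100a6* window held none of these motifs. *S100a11* had AP-1 matches at positions -136 and -38, and *Anxa2* had an AP-1 match at -95 and a TATA match at -17. Of the windows not printed, that of *Anxa1* had a TATA match at -32 and those of *S100a13*, *Anxa4* and *Anxa5* had no match. No window of these genes held the STAT or the forkhead letters. Among 32851 mouse promoter windows of this length, 8.30% held the STAT letters, 7.81% the AP-1 letters, 3.65% the forkhead letters and 13.6% the TATA letters. A match describes the letters only.

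Reads assigned to genes numbered 17239774 to 23993674 in thymic and 25258341 to 32639570 in splenic samples. Levels are given as counts per 1000000 reads (CPM) on TMM-scaled library sizes. At 3 counts, taken as the floor of detection, a gene stood at 0.0950 to 0.163 CPM, a limit that covers counting error only. *Il2ra* ranged from 525 to 682 CPM in thymic WT and from 488 to 539 CPM in splenic WT Tregs. In splenic CD25 KO Tregs it ranged from 168 to 208 CPM. The 5 thymic CD25 KO mice had 105, 279.9, 96.1, 234 and 95.9 CPM in the order of their numbers, so mice 2 and 4 had more *Il2ra* reads than the others. Counts are over the whole gene and do not tell transcripts with and without the removed exon apart. *Foxp3* was present throughout, with means of 503 (WT) and 297 (CD25 KO) CPM in the thymus and of 330 (WT) and 226 (CD25 KO) CPM in the spleen. In sorted bulk samples, a change in the share of cells that express a gene and a change in RNA per cell cannot be told apart.

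*S100a6*, a calcium sensor linked to the cytoskeleton and to proliferation, had the widest splenic difference of the 5 S100 genes. The 4 splenic CD25 KO mice had 77.8, 77.4, 82.7 and 82.9 CPM, against 29.15, 28.6, 28.9 and 32.75 CPM in the 4 WT mice. The order was the opposite in the thymus, where CD25 KO mice had 1.60, 1.01, 2.34, 1.62 and 0.578 CPM and WT mice 4.65, 3.87, 4.22, 6.995 and 5.64 CPM. Neither pair of groups overlapped. The log2 fold change, CD25 KO over WT, was 1.43 ± 0.059 (SE) in the spleen and -1.81 ± 0.29 in the thymus.

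*S100a4*, which binds non-muscle myosin and is a mark of motile and memory-type cells, had the same pattern at lower levels. Splenic CD25 KO mice had 16.9, 17.9, 19.35 and 23.7 CPM and WT mice 11.3, 10.99, 10.6 and 14.2 CPM, so every CD25 KO mouse was above every WT mouse. Thymic WT mice had 12 to 48 counts of *S100a4*, or 1.60, 1.23, 0.539, 2.19 and 1.54 CPM. The CD25 KO mice had 6, 3, 1, 5 and 4 counts, or 0.3001, 0.138, 0.0545, 0.225 and 0.210 CPM, so the gene stood near the floor there and mice 2 and 3 were at or under it. The log2 fold changes were 0.73 ± 0.12 in the spleen and -2.87 ± 0.43 in the thymus, the second from few counts.

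*S100a11*, a partner of annexins in membrane repair and growth control, was at 68.8, 87.6, 76.8 and 85.3 CPM in splenic CD25 KO and at 43.8, 41.8, 37.9 and 41.7 CPM in splenic WT Tregs. In the thymus the CD25 KO mice had 4.30, 3.27, 4.085, 3.11 and 3.10 CPM and the WT mice 7.85, 6.59, 5.79, 7.955 and 5.68 CPM. Here too the groups were apart in both tissues, with log2 fold changes of 0.95 ± 0.074 in the spleen and -0.91 ± 0.15 in the thymus. A processed pseudogene of the gene, *S100a11-ps*, had at most 1 count in any sample.

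*S100a10*, the light chain of the annexin A2 heterotetramer, was the most abundant S100 gene in every group, also per length. It had 252, 293, 275 and 319.8 CPM in splenic CD25 KO against 183, 199, 202 and 200.4 CPM in splenic WT Tregs. Thymic CD25 KO mice had 57.4, 66.7, 57.4, 61.0 and 65.45 CPM and thymic WT mice 93.3, 106, 91.0, 99.2 and 86.4 CPM. The splenic CD25 KO mice were all above and the thymic CD25 KO mice all below their controls, by 0.54 ± 0.066 and -0.61 ± 0.0685 on the log2 scale.

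*S100a13*, which takes part in the unconventional export of growth factors and cytokines that lack a signal peptide, had the narrowest differences of the S100 genes. It had 20.7, 24.5, 22.8 and 24.8 CPM in the CD25 KO spleen against 18.02, 18.8, 18.5 and 20.02 CPM in the WT spleen. In the CD25 KO thymus it had 12.45, 11.1, 10.9, 12.7 and 10.98 CPM against 14.5, 15.2, 13.9, 15.0 and 13.9 CPM in the WT thymus. These groups did not overlap either, although the lowest splenic CD25 KO and the highest splenic WT mouse lay close. The log2 fold changes were 0.30 ± 0.076 and -0.30 ± 0.078, and *S100a13* was the only S100 gene of the 5 outside the threshold of FDR < 0.01 in both tissues. DESeq2, the tool of the study, placed it inside the threshold in both (0.30 and -0.30). In the thymus, where fold changes over all genes went with GC content (Spearman's rho = -0.40 across genes), the value was -0.196 with the GC trend of each library removed. It came inside the threshold in the thymus with all 18 samples in 1 fit (-0.32), and in the spleen without CD25 KO mouse 1 (0.35), without a filter on low counts (0.30) and with the GC trend removed (0.35).

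**Figure D1:**
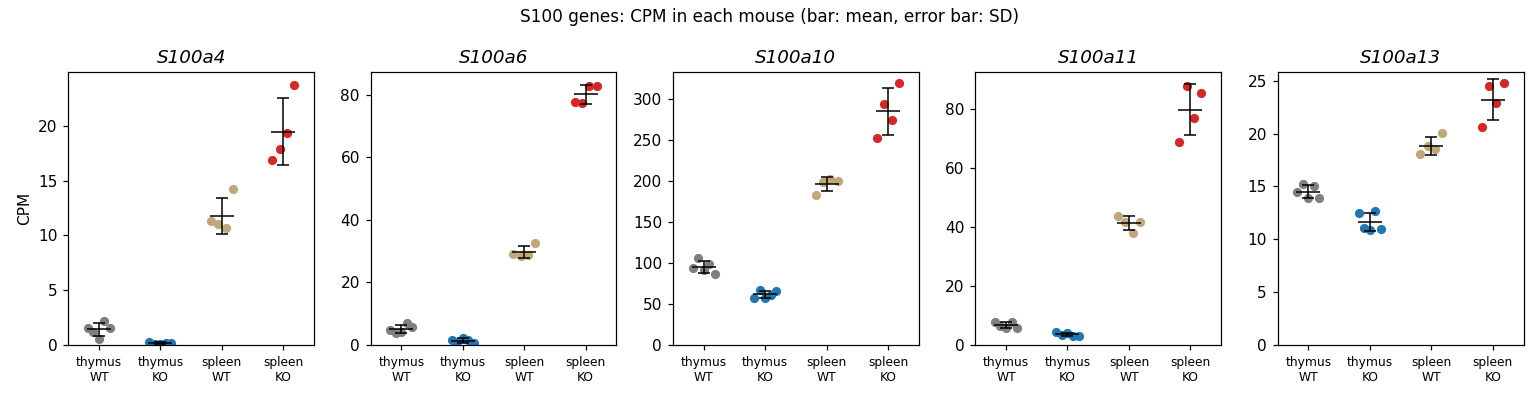
Levels of the 5 S100 genes in CPM (y axis, from 0) in each mouse of the 4 groups (x axis). Each point is 1 mouse, the bar is the group mean and the error bar the SD. In each panel the splenic CD25 KO mice lie above the splenic WT mice and the thymic CD25 KO mice below the thymic WT mice, as for *S100a6* with means of 80.2, 29.9, 1.43 and 5.08 CPM.

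Summed over the 5 S100 genes, the level was 487 ± 42.1 CPM (SD, n = 4) in splenic CD25 KO and 298 ± 9.75 CPM (n = 4) in splenic WT Tregs, and 78.4 ± 3.05 CPM (n = 5) in thymic CD25 KO and 123 ± 8.89 CPM (n = 5) in thymic WT Tregs. *S100a10* gave most of each sum. The share of all reads taken by 1 transcript, *Gm26917*, also differed without overlap between the CD25 KO and WT groups of each tissue. It was 11.9% to 14.3% in splenic WT and 9.38% to 10.9% in splenic CD25 KO mice, and 9.79% to 11.4% in thymic WT and 5.76% to 9.17% in thymic CD25 KO mice. Its part in the levels was not tested.

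Among the annexin genes, *Anxa2*, which binds S100A10 and bridges membranes and actin, had the widest splenic difference. Splenic CD25 KO mice had 62.1, 74.1, 87.9 and 81.3 CPM against 26.01, 33.3, 30.55 and 30.35 CPM in WT mice, a log2 fold change of 1.35 ± 0.095. In the thymus the 5 CD25 KO mice fell apart into a high and a low set. Mice 2 and 4 had 39.2 and 37.6 CPM, within the WT values of 41.1, 43.3, 33.1, 44.85 and 41.2 CPM, and mice 1, 3 and 5 had 17.95, 18.5 and 19.65 CPM. Mice 2 and 4, the high set, are those with more *Il2ra* reads. They also had a larger share of *Gm26917* reads, 9.17% and 8.75% against 5.76% to 7.38% in mice 1, 3 and 5. A link of *Anxa2* to either was not tested. The thymic log2 fold change over all 5 CD25 KO mice was -0.59 ± 0.22, and it was -1.11 without mice 2 and 4, an alternative chosen after the data were seen.

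*Anxa4*, an annexin of epithelial and vesicle membranes, was at 10.3, 12.1, 10.4 and 12.1 CPM in splenic CD25 KO and at 8.33, 8.57, 7.20 and 7.65 CPM in splenic WT Tregs. Thymic CD25 KO mice had 3.501, 3.18, 2.40, 4.73 and 2.21 CPM and thymic WT mice 6.25, 5.06, 3.77, 6.54 and 4.23 CPM. The splenic groups were apart and the thymic groups overlapped, with log2 fold changes of 0.50 ± 0.10 and -0.67 ± 0.22. The splenic value stood outside FDR < 0.01 without WT mouse 3, WT mouse 4, CD25 KO mouse 2 or CD25 KO mouse 4, with log2 fold changes of 0.45, 0.48, 0.46 and 0.46, and also with all 18 samples in 1 fit (0.497).

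*Anxa5*, the phosphatidylserine-binding protein used to stain dying cells, had 56.5, 67.0, 58.55 and 64.7 CPM in splenic CD25 KO and 47.2, 51.3, 50.1 and 47.0 CPM in splenic WT Tregs. Thymic CD25 KO mice had 51.2, 44.5, 37.5, 37.7 and 46.75 CPM, which overlapped the 51.7, 55.4, 51.9, 44.5 and 50.1 CPM of thymic WT mice. The log2 fold changes were 0.34 ± 0.063 in the spleen and -0.21 ± 0.089 in the thymus.

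*Anxa6*, a large annexin of the plasma membrane and endosomes, was the most abundant annexin gene and the exception in the spleen. CD25 KO mice had 443, 450.4, 454 and 472 CPM there, inside the 421, 474, 475 and 483 CPM of the WT mice, and the log2 fold change was -0.025 ± 0.053, with the sign turning to 0.016 when the GC trend of each library was removed. Thymic CD25 KO mice had 256, 271, 235, 250.0 and 192 CPM and thymic WT mice 282, 331, 333, 264 and 341 CPM, which overlap through CD25 KO mouse 2 and WT mouse 4, with a log2 fold change of -0.35 ± 0.096.

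*Anxa1*, the anti-inflammatory annexin of myeloid cells and a ligand of formyl peptide receptors, was scarce. It had 31, 27, 26 and 42 counts in splenic CD25 KO and 15, 8, 23 and 19 counts in splenic WT mice, with overlap in CPM and a log2 fold change of 0.80 ± 0.30. In the thymus it had 5, 1, 2, 1 and 1 counts in CD25 KO and 9, 7, 8, 3 and 5 counts in WT mice, too few to enter the thymic test. No fold is given for that tissue, where 4 of the 5 CD25 KO mice were under the floor.

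**Figure D2:**
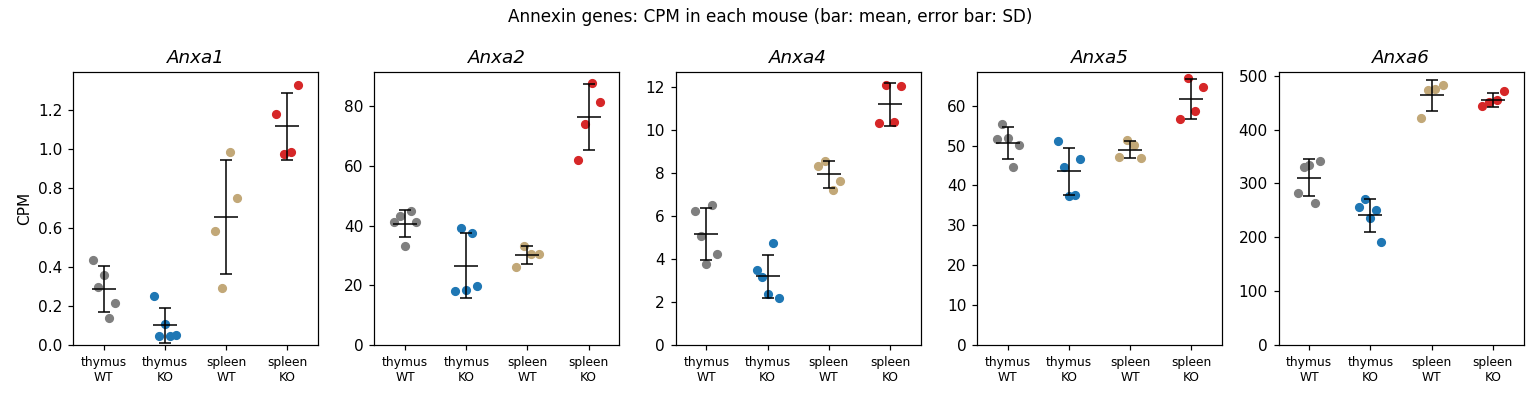
Levels of the 5 annexin genes in CPM (y axis, from 0) in each mouse of the 4 groups (x axis), with 1 point per mouse, the mean as a bar and the SD as an error bar. *Anxa2* is highest in splenic CD25 KO mice (76.4 ± 11.04 CPM) and splits into a high and a low set in thymic CD25 KO mice, while *Anxa6* has like levels in both splenic groups (463 and 455 CPM).

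By edgeR's quasi-likelihood test at FDR < 0.01, 4 of the 5 S100 genes and 3 of the 5 annexin genes were called higher in splenic CD25 KO Tregs and none lower, where 5.90% of the 17463 genes tested were called higher. The 3 not called were *S100a13*, *Anxa1* and *Anxa6*. In the thymus 4 of the 5 S100 genes and none of the 4 annexin genes tested were called lower and none higher, where 2.99% of the 16986 genes tested were called lower. There the genes not called were *S100a13*, *Anxa2*, *Anxa4*, *Anxa5* and *Anxa6*. Over all genes the calls were 1031 higher and 620 lower in the spleen, and 539 higher and 508 lower in the thymus (808 and 440 with upper-quartile scaling). The difference of the CD25 KO effect, spleen minus thymus, was called for all 5 S100 genes and for *Anxa2*, *Anxa4* and *Anxa5*, each with the larger value in the spleen, where 4.50% of 18686 genes were called in that direction (840 higher and 465 lower, or 616 and 669 with upper-quartile scaling). Since these contrasts chose the genes, nothing is read from the counts.

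The median log2 fold change in the spleen was 0.73 over the S100 genes and 0.50 over the annexin genes, against -0.0065 over all genes tested. In the thymus the medians were -0.91 over the 5 S100 genes and -0.47 over the 4 annexin genes tested, against -0.0022 over all genes. The splenic groups did not overlap for 8 of the 10 genes, all higher in CD25 KO, where 11.2% of all genes tested had no overlap in that direction. The thymic groups did not overlap for the 5 S100 genes, all lower in CD25 KO, where 9.17% of all genes did so. The annexin genes overlapped between the thymic groups without exception. The threshold parted genes with like values: *Anxa4*, with a splenic log2 fold change of 0.50, was inside it, as was *Anxa5* at 0.34, while *S100a13* at 0.30 was just outside.

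**Figure D3:**
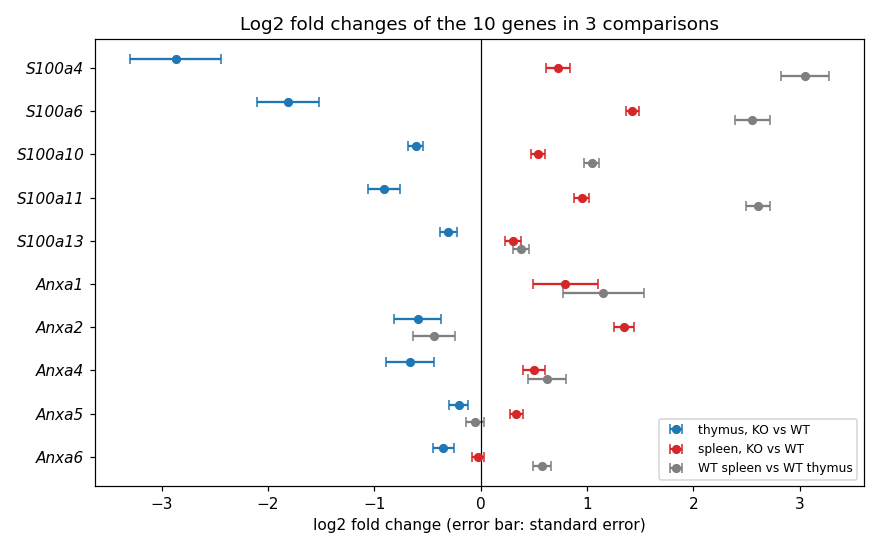
Log2 fold changes (x axis) of the 10 genes (y axis) for CD25 KO against WT in the thymus, CD25 KO against WT in the spleen, and WT spleen against WT thymus. Points are estimates and error bars standard errors. The S100 genes lie to the left in the thymus (*S100a6*, -1.81) and to the right in the spleen (*S100a6*, 1.43), and *Anxa1* has no thymic point.

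WT Tregs of the spleen and the thymus were then compared, a contrast that the choice of the genes did not use. Its adjusted p-values are not independent of the choice, which the same WT mice entered. All 5 S100 genes and 2 of the 5 annexin genes were higher in WT spleen and none was lower, where 21.0% of the 18686 genes tested were called higher and 19.5% lower. *S100a4* rose from 1.42 ± 0.604 CPM (SD, n = 5) in the thymus to 11.8 ± 1.63 CPM (n = 4) in the spleen, a log2 fold change of 3.05 ± 0.22 (edgeR, adjusted p = 5.50e-10). *S100a11* rose from 6.77 ± 1.09 to 41.3 ± 2.47 CPM, by 2.61 ± 0.11 (edgeR, adjusted p = 1.14e-13), and *S100a6* from 5.08 ± 1.26 to 29.9 ± 1.95 CPM, by 2.56 ± 0.17 (edgeR, adjusted p = 1.14e-10). These 3 genes had the widest differences between the WT groups. *S100a10* rose by 1.04 ± 0.070, from 95.1 ± 7.52 to 196 ± 8.83 CPM (edgeR, adjusted p = 1.52e-10). *S100a13* rose by 0.38 ± 0.074, from 14.5 ± 0.598 to 18.8 ± 0.852 CPM (edgeR, adjusted p = 0.000245). In each of the 5, every splenic WT mouse was above every thymic WT mouse.

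The annexin genes were less uniform. *Anxa6* rose from 310 ± 34.6 CPM in WT thymus to 463 ± 28.6 CPM in WT spleen (log2 fold change 0.58 ± 0.087, edgeR, adjusted p = 1.26e-05), and *Anxa4* from 5.17 ± 1.21 to 7.94 ± 0.630 CPM (0.62 ± 0.18, edgeR, adjusted p = 0.00632). The *Anxa4* call was lost in 12 of 26 alternatives, each without 1 mouse (thymic WT mouse 2, 3 or 5, thymic CD25 KO mouse 1 or 2, splenic WT mouse 1, 2 or 4, or any splenic CD25 KO mouse), at 0.49 to 0.64. *Anxa5* was at 50.7 ± 3.98 and 48.9 ± 2.14 CPM, with a log2 fold change of -0.053 ± 0.086 (edgeR, adjusted p = 0.631), so a difference between the WT tissues was not detected. *Anxa2* had 40.7 ± 4.54 CPM in the thymus and 30.1 ± 3.01 CPM in the spleen, at -0.44 ± 0.20 (edgeR, adjusted p = 0.0665). With the 9 WT samples alone it was -0.45 and past the threshold (edgeR, adjusted p = 0.0005877, within a range of 0.0005515 to 0.165 over 26 alternatives). *Anxa1*, which had 3 to 9 counts in thymic WT mice, had a log2 fold change of 1.16 ± 0.38 that missed the threshold (edgeR, adjusted p = 0.0161). The 7 genes that passed were also those whose WT groups did not overlap, where 24.0% of all genes had no overlap with the spleen higher. The median log2 fold change was 2.56 over the S100 genes and 0.58 over the annexin genes, against 0.013 over all genes.

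Because the S100A10 and annexin A2 proteins form a complex, their transcripts were set side by side per kilobase of annotated exon. *S100a10* stood at 78.5 ± 6.20 (WT) and 50.8 ± 3.61 (CD25 KO) CPM per kb in the thymus and at 162 ± 7.28 (WT) and 235 ± 23.6 (CD25 KO) in the spleen. *Anxa2* stood at 10.9 ± 1.22, 7.13 ± 2.91, 8.06 ± 0.808 and 20.5 ± 2.96 CPM per kb in the same order of groups, so *S100a10* was the more abundant transcript in every group. The ratio of *S100a10* to *Anxa2* per kb was 18.4 to 21.7 in splenic WT and 9.61 to 12.5 in splenic CD25 KO Tregs, 2 ranges that do not overlap. It was 6.46 to 8.47 in thymic WT Tregs. In the thymic CD25 KO mice with more *Il2ra*, mice 2 and 4, it was 5.23 and 4.995, below every thymic WT mouse, and in the other 3 it was 9.57 to 10.3, above every thymic WT mouse. The ratio rests on the levels that chose the genes and was not tested.

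**Figure D4:**
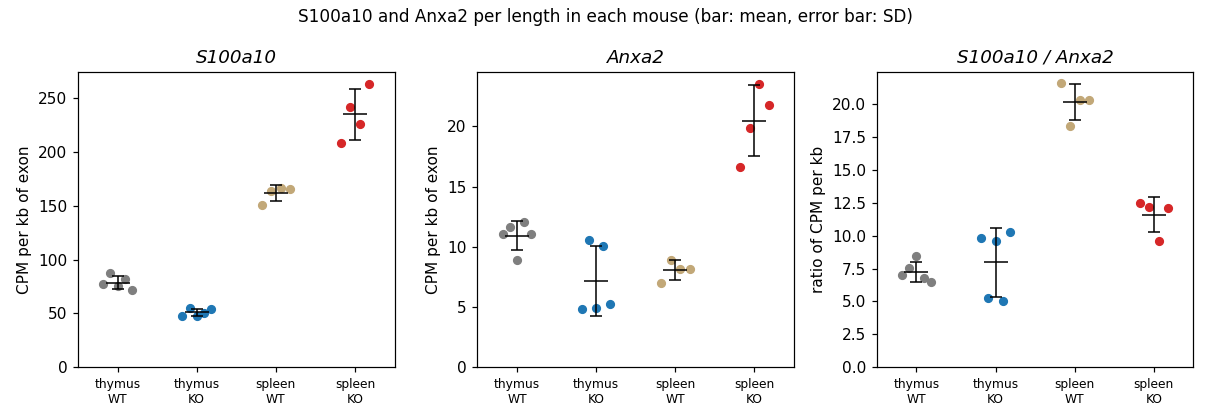
Levels of *S100a10* and *Anxa2* in CPM per kb of exon and their ratio (y axes, from 0) in each mouse of the 4 groups (x axes). Points are mice, bars are means and error bars SD. Both genes are highest in splenic CD25 KO mice, while the ratio is highest in splenic WT mice (mean 20.2) and takes 2 separate ranges among the thymic CD25 KO mice.

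On the same scale per kb, *S100a10* and *Anxa6* were the leading genes in the thymic groups and in splenic WT Tregs, and in splenic CD25 KO Tregs *S100a11* (156 ± 16.8 CPM per kb) stood level with *Anxa6* (155 ± 4.17) behind *S100a10* (235 ± 23.6). In splenic WT Tregs *S100a10* (162 ± 7.28 CPM per kb) and *Anxa6* (158 ± 9.77) did not differ beyond their spread, followed by *S100a11* (80.8 ± 4.83). *Anxa5* (27.5 ± 1.21) and *S100a13* (26.4 ± 1.19) lay within each other's spread, and *S100a6* (21.8 ± 1.43) lay within the spread of *S100a4* (20.2 ± 2.80). The length counts every annotated exonic base, 1367 for *S100a6* and 584 for *S100a4*, so the order of genes depends on the annotation. Of the 584 bases of *S100a4*, 302 are shared with *Gm42674*, so the place of *S100a4* in the order is uncertain in every group. In CPM, splenic WT Tregs had more *S100a6* (29.85) than *S100a4* (11.77). *Anxa2* (8.06 ± 0.808), *Anxa4* (1.71 ± 0.136) and *Anxa1* (0.224 ± 0.10) were the lowest. In thymic WT Tregs the order was different: *Anxa6* (106 ± 11.8) and *S100a10* (78.5 ± 6.20) led, then *Anxa5* (28.6 ± 2.24), *S100a13* (20.3 ± 0.836), *S100a11* (13.3 ± 2.13) and *Anxa2* (10.9 ± 1.22), and *S100a6* (3.71 ± 0.923) and *S100a4* (2.43 ± 1.03) came near the end.

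Spread among mice differed between the genes. The coefficient of variation within splenic groups was 3.76% to 6.53% for *S100a6* and 4.50% to 10.0% for *S100a10*. It reached 42.5% in WT and 50.2% in CD25 KO thymus for *S100a4*, whose counts there were few. In thymic CD25 KO mice it was 46.8% for *S100a6* and 40.8% for *Anxa2*. Over the 18 mice, after the mean of each group was removed, the genes whose deviations went together most were *S100a13* and *Anxa4* (Pearson's r = 0.66, Spearman's rho = 0.70), while *S100a10* and *Anxa2* had r = 0.47 and rho = 0.47. These mice share library preparation and scaling, and the values are a description.

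The other genes of both families were mostly silent. Of 11 further S100 genes, *S100a1*, *S100a3*, *S100a5*, *S100a7a*, *S100a8*, *S100a9*, *S100a14*, *S100a16*, *S100b*, *S100g* and *S100z*, 4 had enough counts for the splenic and 2 for the thymic test, and none was called in either. *S100a8* and *S100a9*, the abundant neutrophil pair, had means of at most 0.520 and 0.478 CPM, both in thymic WT Tregs. *S100g*, an intestinal calcium carrier, was the highest of the 11, at 1.92 ± 0.559 CPM in thymic WT and 1.295 ± 0.192 CPM in splenic WT Tregs. Of 7 further annexin genes, *Anxa3*, *Anxa7*, *Anxa8*, *Anxa9*, *Anxa10*, *Anxa11* and *Anxa13*, 3 were tested in each tissue. *Anxa7*, a partner of sorcin, was the 1 called, from 47.2 ± 2.34 CPM in splenic WT to 56.8 ± 3.54 CPM in splenic CD25 KO Tregs (log2 fold change 0.27, edgeR, adjusted p = 0.00524). *Anxa11* had log2 fold changes of 0.18 in the spleen (edgeR, adjusted p = 0.0532) and -0.22 in the thymus (edgeR, adjusted p = 0.117). Between the WT tissues *Anxa7* (0.81), *Anxa9* (1.37) and *Anxa11* (0.64) were all higher in the spleen (edgeR, adjusted p from 9.86e-09 to 9.84e-05).

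The further gene lists were chosen with earlier results of these data known. Over all genes tested, 5.90% were called higher and 3.55% lower in splenic CD25 KO Tregs, and 3.17% higher and 2.99% lower in thymic CD25 KO Tregs. Of 16 genes for partners and receptors of S100 proteins and annexins, 13 were tested in the spleen, of which 2 rose and 1 fell, and 12 in the thymus, of which 1 rose and 1 fell, with medians of 0.11 and -0.035 on the log2 scale. *Ahnak*, the giant scaffold that holds S100A10 and annexin A2 at the plasma membrane, rose from 1765 ± 67.3 to 2159 ± 174 CPM in splenic CD25 KO Tregs (log2 fold change 0.29, edgeR, adjusted p = 0.00462). Thymic levels were 470 ± 62.2 (WT) and 235 ± 103 (CD25 KO) CPM, at -0.98 (edgeR, adjusted p = 0.0159), which missed the threshold. *Ahnak* was also higher in WT spleen than in WT thymus (1.91, edgeR, adjusted p = 1.71e-07). *Tlr4*, a receptor for secreted S100 proteins, rose in the spleen from 1.81 ± 0.119 to 4.48 ± 0.948 CPM (1.31, edgeR, adjusted p = 0.00011), and *Ager*, the RAGE receptor, fell from 9.71 ± 0.642 to 5.72 ± 0.926 CPM (-0.77, edgeR, adjusted p = 0.000439). In the thymus *Hltf*, a chromatin remodeller that binds the S100A10 and annexin A2 complex, rose (0.40, edgeR, adjusted p = 0.0064) and *Trp53*, encoding p53, a target of S100A4, fell (-0.30, edgeR, adjusted p = 0.00636). The annexin A1 receptors *Fpr1* and *Fpr2* had means under 0.14 CPM in every group.

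Of 13 membrane repair genes, which work alongside annexins at plasma membrane wounds, 10 were tested in each tissue. *Chmp4b*, an ESCRT-III subunit, was the 1 that rose in splenic CD25 KO Tregs (0.23, edgeR, adjusted p = 0.00644) and none fell, with a median of 0.11. *Capn2* (-0.45, edgeR, adjusted p = 0.00234) and *Capns1* (-0.27, edgeR, adjusted p = 0.0076), a calpain and the shared calpain subunit, fell in thymic CD25 KO Tregs and none rose, with a median of -0.16. *Ehd1* was at 0 in every splenic sample and at 4.17 ± 0.604 CPM in thymic WT Tregs.

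A list of 9 genes that are usually high in effector and memory T cells was set beside the S100 genes, and all 9 were tested. In the spleen 4 rose and none fell, with a median of 0.24, where 5.90% of all genes tested were called higher. *Lgals3* (galectin-3) rose from 3.55 ± 0.348 to 14.1 ± 3.48 CPM (1.99, edgeR, adjusted p = 9.17e-07), and *Ccr2*, a chemokine receptor, from 35.2 ± 7.59 to 85.7 ± 8.68 CPM (1.29, edgeR, adjusted p = 2.33e-06). *Lgals1* (galectin-1, 0.76, edgeR, adjusted p = 4.64e-06) and *Itgb1* (integrin β1, 0.74, edgeR, adjusted p = 1.77e-05) were the others. In the thymus 4 fell and none rose, with a median of -0.63, where 2.99% of all genes tested were called lower. With lists of 9 genes chosen in this way, nothing is read from these counts about the list. These were *Tagln2* (-1.17, edgeR, adjusted p = 0.00356), *Capg* (-0.92, edgeR, adjusted p = 0.00802), *Itgb1* (-0.78, edgeR, adjusted p = 1.54e-05) and *Vim* (-0.63, edgeR, adjusted p = 0.00669), which encode actin-binding proteins, an integrin chain and vimentin. Of the 9 genes, *Itgb1* was the 1 called in both tissues, with opposite directions. The difference between the tissues was called for 6 of the 9 genes, each with the larger value in the spleen, where 4.50% of all genes tested were called in that direction. *Itgb1* was 1 of these 6 (1.54, edgeR, adjusted p = 4.37e-08), and nothing is read from this count either.

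Of 9 genes of resting and naive T cells, all tested, 3 were called in the spleen and 1 in the thymus. In splenic CD25 KO Tregs *Igfbp4* (-2.59, edgeR, adjusted p = 2.97e-09) and *Bach2* (-0.65, edgeR, adjusted p = 5.72e-05) fell and *Tcf7* rose (0.24, edgeR, adjusted p = 0.00706), with a median of -0.24. In thymic CD25 KO Tregs *Klf2* fell (-0.53, edgeR, adjusted p = 0.00354) and none rose, with a median of -0.029. *Igfbp4* is an insulin-like growth factor binding protein, and *Bach2*, *Tcf7* and *Klf2* encode transcription factors of quiescent T cells.

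The S100 genes sit in clusters, so their neighbours were read as well. Of 33 other genes within 100 kb of an S100 gene described here, 7 were tested in the spleen, with a median log2 fold change of 0.054, and 5 in the thymus, with a median of -0.033. The 1 called was *Gm5541*, an unprocessed pseudogene, which rose from 5.35 ± 0.925 to 8.99 ± 0.478 CPM in splenic CD25 KO Tregs (0.75, edgeR, adjusted p = 0.000706). Its thymic levels were 0.616 ± 0.207 (WT) and 0.0482 ± 0.0613 (CD25 KO) CPM, the second under the floor. *Ilf2* and *Snapin*, 2 well-expressed neighbours, had splenic log2 fold changes of 0.030 and 0.054 that did not pass (edgeR, adjusted p = 0.736 and 0.671).

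*S100a4*, *S100a6* and *Anxa1* are also abundant in myeloid cells, so markers of the other cells that a sort could hold were read beside them. Summed over 7 macrophage and monocyte markers, the level was 17.1 to 24.2 CPM in splenic WT and 22.4 to 29.2 CPM in splenic CD25 KO mice. Of 5 tested 1 rose, *Lyz2*, from 6.18 ± 2.34 to 12.65 ± 1.69 CPM (1.03, edgeR, adjusted p = 0.00132), and none of the 7 was at 0 in the spleen. The thymic sums were 9.91 to 29.8 (WT) and 7.38 to 22.0 (CD25 KO) CPM, and none of 4 tested was called. The sum over 8 neutrophil markers was at most 3.57 CPM in any sample, with *Ly6g* at 0 in the spleen and *S100a8* and *Ly6g* at 0 in thymic CD25 KO mice.

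Natural killer markers, 5 in all, summed to 4.97 to 8.02 CPM in splenic WT and 11 to 16.55 CPM in splenic CD25 KO mice, with *Ncr1* and *Klra8* at 0 in both. Of 2 tested, *Klrb1c* rose from 1.15 ± 1.01 to 4.27 ± 1.17 CPM (1.90, edgeR, adjusted p = 0.0029). The 6 B-cell markers summed to 20.7 to 22.6 CPM in splenic WT and 20.3 to 24.1 CPM in splenic CD25 KO mice, and *Pax5*, 1 of 3 tested, rose (1.04, edgeR, adjusted p = 0.00352). The 6 dendritic cell markers summed to 26.05 to 27.9 CPM in splenic WT and 26.5 to 33.7 CPM in splenic CD25 KO mice. Of 2 tested there, none was called. *Zbtb46* gave most of the splenic sums, with means of 24.6 (WT) and 27.25 (CD25 KO) CPM. The thymic sums spread more widely, at 23.9 to 41.8 (WT) and 14.2 to 57.2 (CD25 KO) CPM, with none of 5 tested called. *Siglech* had thymic means of 11.9 (WT) and 18.95 (CD25 KO) CPM and was at most 0.158 CPM in any splenic mouse. The 6 immature thymocyte markers summed to 37.4 to 170 CPM in thymic WT and 49.4 to 107 CPM in thymic CD25 KO mice, with none of 5 tested called, and to at most 9.45 CPM in the spleen, where *Rag1* was at 0. Of the 2 CD8 genes and the 5 erythroid genes, none tested was called in either tissue. Of the 9 markers of stroma, epithelium and endothelium, 3 were tested in each tissue, and *Pecam1*, which T cells also express, was the 1 called, with a fall from 177 ± 9.67 to 137 ± 12.5 CPM in splenic CD25 KO Tregs (-0.37, edgeR, adjusted p = 0.00084). The part of these cells in the levels of the S100 and annexin genes was not tested.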

How the data were processed

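The data are bulk RNA-seq libraries of sorted Tregs, 1 from each of 18 mice. The authors aligned 75 bp paired-end reads to GRCm38 with STAR 2.5.0b and assigned them to GENCODE M13 genes with featureCounts 1.5.0, per the labels and the methods. The strand setting is not given in the sources used here. The deposited values are raw counts per gene without normalization, pooling or filtering, and 0 columns were left out. Symbols and coordinates came from GENCODE M21, where 50376 of 50600 identifiers matched, and promoters from RefSeq.

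Analyses were run in R 4.3.3. Genes were kept with filterByExpr, scaled by TMM and tested with edgeR 4.0.16 (quasi-likelihood, Benjamini-Hochberg adjustment over all genes tested, FDR < 0.01, the threshold of the study). CD25 KO and WT were compared within each tissue. The difference of the effects and WT spleen against WT thymus came from 1 fit of 18 samples. The study used DESeq2, and DESeq2 1.42.0 was run as an alternative, with RLE and upper-quartile scaling, no low-count filter, GC correction, all samples in 1 fit, the thymic mouse number as a block and each mouse left out in turn. Each standard error is the fold change divided by the root of F. CPM are on TMM-scaled library sizes of all 18 samples, with mean ± SD over mice.

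The 10 genes and all gene lists were chosen with earlier results of these data known. The text names all 10 genes, up to 5 called genes per list and contrast, called neighbours within 100 kb, and 8 genes most like the S100 genes across samples. Other genes were named after their values were seen. Tested on simulated data with 200 genes changed 2-fold, the procedure recovered 99.5% of 200 in the spleen (9 false calls among 17286 genes), 88% in the thymus (0 among 16777), 78.5% for the difference (1 among 18260) and 89.5% between WT tissues (2 among 18235). The changed genes had an average log2 CPM above 2, so recovery of scarcer genes and of smaller changes was not tested. Simulated counts were drawn for each gene on its own, without differences among mice that many genes share. False calls from such shared differences were not tested. Reads carry no molecular identifiers, so floors cover counting error only. Replicates are mice, and replicate libraries differed by more than sampling noise (chi-square per degree of freedom of 3.77 to 48.4).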

Additional observations from a re-analysis of the deposited data

Results flagged for a closer look

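In 40 combinations of gene and group, 3 had 1 mouse far from the others by Dixon's criterion, where chance flags about 1 in 20. All 3 were in splenic WT Tregs: *S100a6* in mouse 4 at 32.75 CPM (others 28.6 to 29.15), *S100a10* in mouse 1 at 182.9 CPM (others 199 to 202) and *Anxa6* in mouse 1 at 420.9 CPM (others 474 to 483).

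The effect of CD25 KO differed between spleen and thymus by the interaction term of the edgeR fit for 8 genes, a contrast that chose the genes, so the values are a description. On the log2 scale, spleen minus thymus, the difference was 3.61 ± 0.42 (SE) for *S100a4*, 3.25 ± 0.27 for *S100a6*, 1.87 ± 0.16 for *S100a11*, 1.17 ± 0.10 for *S100a10* and 0.62 ± 0.105 for *S100a13*. It was 1.96 ± 0.28 for *Anxa2*, 1.18 ± 0.26 for *Anxa4* and 0.56 ± 0.12 for *Anxa5*. The calls of *Anxa4* and *Anxa5* were lost when single splenic mice were left out: WT mouse 3 or 4 or CD25 KO mouse 2 or 4 for *Anxa4* (1.13 to 1.16), and WT mouse 1 or 4 or CD25 KO mouse 2 or 4 for *Anxa5* (0.51 to 0.54). *Anxa6* (0.34 ± 0.12) was not called, and no difference is given for *Anxa1*, which had too few thymic counts.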

How the results depend on the processing

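Of 812 values of the 10 genes under the alternatives, 766 kept their direction and their side of FDR < 0.01, 29 lost the call, 16 gained it and 1 turned sign (*Anxa6* in the spleen, 0.016 with the GC trend removed). *S100a6*, *S100a10*, *S100a11* and *Anxa2* kept their splenic calls, and *S100a4* and *S100a10* their thymic calls, under every alternative run. The alternatives reuse the mice and contrasts that chose the genes, so the kept calls are a description and no independent test. Fitting all 18 samples at once gave 795 called genes in the spleen and 4 of the 10 genes higher there (*S100a4*, *Anxa4* and *Anxa5* lost the call), and 2881 called genes in the thymus with 7 of the 10 lower (*S100a13*, *Anxa4* and *Anxa6* gained it). DESeq2 called 2730 genes in the thymus and 2188 for the difference. Without thymic CD25 KO mice 2 and 4, chosen after seeing the data, 2008 genes were called in the thymus, 2307 for the difference, and 1 of the 10 genes, *Anxa2*, lower in WT spleen, as with the 9 WT samples alone (1). With 1 mouse left out in turn, called genes ranged from 1099 (without WT mouse 3) to 1723 in the spleen, from 371 to 1087 in the thymus and from 817 (without splenic CD25 KO mouse 2) to 1489 for the difference. The thymic count stood at 380, 401, 428, 406 and 371 without WT mice 2, 3 and 5 and CD25 KO mice 1 and 3, and 4 of the 10 genes were lower in each case. The causes were not tested. Counts limit *S100a4* and *Anxa1* in the thymus.

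Same-numbered thymic mice deviated together with r of -0.24 to 0.14, and 1 of 5 numbers was its own best partner. With so few numbers this neither shows nor excludes pairing of the mice by number, and the main fit used none. With the number as a block, 209 genes were called in the thymus and 2 of the 10 genes lower there, and *S100a6* and *S100a11* missed the threshold. In the WT contrast *Anxa1* then passed it (1.27, edgeR, adjusted p = 0.006907, within 0.00385 to 0.0817 over its alternatives), and the block changed no other call of the 10 genes. In the spleen no paired analysis was possible because the labels of its groups share no numbers.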

Other observations

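The genes whose levels went most closely with the mean of *S100a4*, *S100a6*, *S100a10* and *S100a11* were read over the 18 mice, after the mean of each of the 4 groups was removed, among 9464 genes with a mean log2 CPM of at least 3. *Sos2* had Pearson's r = 0.84 and Spearman's rho = 0.89, *Rora* r = 0.81 and rho = 0.82, and *Ak3* r = 0.80 and rho = 0.67. *Slc25a28* (r = 0.77), *Tgif1* (r = 0.76), *1110051M20Rik*, *Sfxn3* and *Ube2f* (each r = 0.75) followed, against a median r of -0.0064 over all genes compared. These are the highest of 9464 values over 18 mice, so selection alone raises them, by an amount that was not tested. Without thymic WT mice 3 and 4, which lay farthest from the median, r was lower for *Ak3* (0.47), *Slc25a28* (0.50), *Ube2f* (0.58) and *Rora* (0.63), and the other 4 genes had r of 0.73 (*Sfxn3*) to 0.845 (*Sos2*). The thymic counts of *S100a4* were few, the mice share library preparation and scaling, and the values are a description of these 18 libraries.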
